A study of Mus musculus with 12 samples.

Results

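The 9 genes described here encode subunits of the Polycomb repressive complexes, and they were found in the deposited count table by matching its mouse Ensembl identifiers to gene symbols. The table holds 45706 genes, and all 9 passed the filter on low counts that left 17003 genes for testing. The genes *Ezh1*, *Ezh2*, *Suz12*, *Eed* and *Jarid2* make up the PRC2 members, and *Cbx2*, *Cbx7*, *Cbx8* and *Bmi1* the PRC1 members. Their levels were followed in 12 mouse libraries, 3 biological replicates for each of 4 groups.

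All 4 groups were derived from embryonic stem cells (ESCs) and are labelled strain C57BL/6. Baseline stands for neural progenitor cells (NPCs) of glial type that are labelled as *Sox1*-negative and not sorted. Sox1posGP stands for NPCs sorted for the *Sox1* GFP reporter after guide RNAs had brought the activator dCas9-VP64 to the promoter of *Sox1*. The study describes NPCs, NSC and NR alike as derived from ESCs with GFP knocked into *Sox1*, and the NPCs as heterozygous for it. The dCas9-VP64 lines were clonal, so each line goes back to 1 cell. NSC stands for neural stem cells early after neural induction of ESCs, a neuroepithelial culture that was not sorted. NR stands for neural rosettes, the neuroepithelial cells sorted by GFP. For each group the replicates were made on different days.

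PRC2 and PRC1 are protein complexes that keep developmental genes silent. PRC2 methylates the tail of a core histone through its catalytic subunit Ezh2 or the less active paralogue Ezh1, which need the scaffold proteins Suz12 and Eed, and Jarid2 helps the complex to find its targets. Canonical PRC1 reads that methyl mark through 1 of several Cbx proteins and carries a Pcgf protein such as Bmi1 beside its ubiquitin ligase Ring1 or Rnf2. In the neural lineage Ezh2 is known as the enzyme of dividing progenitors, Bmi1 as a factor that lets neural stem cells renew by repressing the *Cdkn2a* locus, and Cbx7 as the Cbx protein of pluripotent cells. Which paralogue a cell transcribes is therefore of interest across the 4 groups, since 2 of them are progenitors of glial type and the others are labelled as early neuroepithelial cells.

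Depth and cell identity differed between the groups. Total counts ranged from 3407066 to 43095688 per library, and the group median was 5.33 times higher in NSC than in Sox1posGP, the shallowest group. *Sox1*, the targeted gene, lay between 20.3 and 21.7 CPM, the count of a gene relative to the total of its library after scaling by the trimmed mean of M values (TMM), in Sox1posGP and between 4.83 and 6.00 CPM in Baseline. In NSC it lay between 48.6 and 64.9 CPM, and in the libraries labelled NR it was at 4.62, 20.001 and 19.2 CPM. The libraries labelled NR also carried transcripts of pluripotent cells. The summed level of 7 pluripotency markers was 1427 to 2741 CPM there, against 54.8 to 157 CPM in NSC, 34.7 to 45.5 CPM in Baseline and 13.6 to 15.3 CPM in Sox1posGP. The Baseline sum was mostly *Klf4*, at 28.0 to 39.0 CPM there and at 4.92 to 6.44 CPM in Sox1posGP. None of the other markers averaged above 3.47 CPM in Baseline. All 7 markers were higher in NR than in NSC, and *Dppa5a* reached 813 to 1612 CPM in NR. The summed level of 7 neuroepithelial markers was 458 to 980 CPM in NR and 1748 to 1837 CPM in NSC, and all 7 were lower in NR. The summed level of 8 mesoderm and endoderm markers was 98.3 to 148 CPM in NR and 41.4 to 58.6 CPM in NSC. Of the 7 tested, 5 were higher and 1 was lower in NR. Each result on NR below stands beside these values, and the part of pluripotent or other cells in it was not tested. In bulk samples of this kind fewer cells of a type and less RNA per cell cannot be told apart.

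*Ezh2* (ENSMUSG00000029687, chromosome 6, 47530139 to 47595341 on the minus strand of GRCm38) was transcribed in every library, with the highest level in NSC. Its levels were 138, 120 and 129 CPM in Baseline and 158, 156 and 153 CPM in Sox1posGP. In NSC they were 238, 269 and 259 CPM, and in NR 197, 205 and 180 CPM. No 2 groups overlapped, and the order NSC, NR, Sox1posGP, Baseline held between all neighbours. In NSC *Ezh2* was 1.97-fold higher than in Baseline (log2 fold change 0.98 ± 0.08 standard error, adjusted p = 9.70e-08, where p is from the quasi-likelihood test of edgeR, adjusted over all genes tested, and a gene is called when it is under 0.1), and NR exceeded Baseline by 0.58 ± 0.08 (adjusted p = 1.46e-05). NR lay below NSC with a log2 fold change of -0.40 ± 0.08 (adjusted p = 9.86e-04). Sox1posGP exceeded Baseline by 0.27 on the log2 scale (SE 0.08, adjusted p = 0.0185). Without Baseline replicate 2, the lowest of its group, the last difference was 0.20 and had an adjusted p of 0.144.

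*Ezh1* (ENSMUSG00000006920, chromosome 11, 101191115 to 101226463, minus strand), the paralogue linked to cells that divide little, followed another order. It was at 24.8, 24.3 and 24.2 CPM in Baseline and at 23.2, 23.7 and 21.8 CPM in Sox1posGP. NSC had the lowest levels of 20.6, 17.5 and 19.8 CPM, and NR the highest of 43.6, 31.4 and 32.7 CPM. NR therefore stood above every other library, while the 3 remaining groups lay close together. The log2 fold change of NR was 0.55 against Baseline (standard error of 0.13, adjusted p = 0.0017) and 0.89 against NSC (standard error of 0.13, adjusted p = 8.76e-05). NSC was lower than Baseline with a log2 fold change of -0.34 ± 0.13 (adjusted p = 0.0316), a call that was lost with no filter on low counts (-0.25, adjusted p = 0.236). Sox1posGP against Baseline was not called (-0.10, 95% confidence interval -0.40 to 0.21). The difference between Sox1posGP and NSC did not pass either (0.24, interval -0.05 to 0.54, adjusted p = 0.1252), although it passed in 8 of 21 alternative analyses.

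The bases upstream of the annotated starts are shown for the 2 *Ezh* paralogues and for *Cbx7*, the member with the widest range of levels, because these 3 genes carry the paralogue ratios given below. They are from RefSeq on GRCm38.p6, in lower case and 5′ to 3′ on the strand of the gene, with every CG dinucleotide in capitals, and cover the longest run of the 250 bases before the start that no GENCODE exon overlaps.
Ezh1, chr11:101226464-101226713, minus strand: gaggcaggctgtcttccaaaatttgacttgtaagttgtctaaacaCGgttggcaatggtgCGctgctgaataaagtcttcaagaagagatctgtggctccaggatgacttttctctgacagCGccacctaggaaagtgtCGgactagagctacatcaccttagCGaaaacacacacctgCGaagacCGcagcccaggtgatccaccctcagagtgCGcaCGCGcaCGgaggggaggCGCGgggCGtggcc
Ezh2, chr6:47595059-47595183, minus strand: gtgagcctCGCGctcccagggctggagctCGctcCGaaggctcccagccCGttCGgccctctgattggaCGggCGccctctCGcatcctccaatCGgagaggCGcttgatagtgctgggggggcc
Cbx7, chr15:79932769-79932896, minus strand: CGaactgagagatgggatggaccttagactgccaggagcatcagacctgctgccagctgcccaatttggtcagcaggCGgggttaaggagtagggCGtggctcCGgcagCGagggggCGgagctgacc
Over the full 250 bases *Ezh1* had 14 CG dinucleotides, *Ezh2* 23 and *Cbx7* 23, and the median of 32851 windows of that length was 6. The window of *Suz12* had 37, and 2.2% of all windows held as many. Of the genes shown, the RefSeq starts used for *Ezh2* and *Cbx7* lie inside the longer genes of GENCODE. An entry was found for 8 of the 9 members and not for *Cbx2*. The E2F-type octamers TTTCCCGC, TTTCGCGC, TTTGCCGC and TTTGGCGC were searched on both strands, and 1.86% of all windows held at least 1 of them. Among the members 1 window held a match, that of *Suz12* with TTTCCCGC. A match is a description of letters and says nothing of binding.

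*Suz12* and *Eed*, the scaffold subunits, were highest in NR. *Suz12* (ENSMUSG00000017548, chromosome 11, 79993106 to 80034123, plus strand) was at 112, 106 and 108 CPM in Baseline and at 78.5, 91.9 and 84.4 CPM in Sox1posGP. In NSC it was at 112, 115 and 116 CPM and in NR at 276, 176 and 224 CPM. Baseline and NSC thus had nearly the same level, with Sox1posGP below and NR above both. NR was 2.07-fold higher than Baseline (log2 fold change 1.05 ± 0.13 standard error, adjusted p = 3.96e-06) and 1.97-fold higher than NSC (0.98 ± 0.12, adjusted p = 3.71e-05). The interval for NSC against Baseline ran from -0.20 to 0.34. In Sox1posGP *Suz12* was lower than in Baseline with a log2 fold change of -0.36 ± 0.13 (adjusted p = 0.0450). That call was lost in 4 of 21 alternative analyses, which were upper-quartile scaling and the omission of Baseline replicate 1 or of Sox1posGP replicate 1 or 3, with adjusted p from 0.102 to 0.176.

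*Eed* (ENSMUSG00000030619, chromosome 7, 89954654 to 89980983, minus strand), whose protein binds the methylated histone tail, was at 102, 88.9 and 96.6 CPM in Baseline and at 94.4, 93.9 and 92.1 CPM in Sox1posGP. The levels were 120, 149 and 128 CPM in NSC and 215, 178 and 176 CPM in NR. The groups of NPCs overlapped, and NSC and NR rose above them in that order. *Eed* was 1.38-fold higher in NSC than in Baseline (0.47 ± 0.10 on the log2 scale, adjusted p = 8.54e-04) and 1.98-fold higher in NR (0.99 ± 0.10, adjusted p = 8.22e-07). NR exceeded NSC by 0.52 ± 0.10 (adjusted p = 6.79e-04). For Sox1posGP against Baseline the interval was -0.26 to 0.19.

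*Jarid2* (ENSMUSG00000038518, chromosome 13, 44729474 to 44921643, plus strand), the substoichiometric PRC2 subunit that is abundant in pluripotent cells, had the widest span of the PRC2 members. Its levels were 82.8, 91.7 and 80.8 CPM in Baseline and 75.9, 78.0 and 75.7 CPM in Sox1posGP. NSC had 303, 221 and 315 CPM, and NR had 710, 446 and 541 CPM. Every library labelled NSC or NR thus lay above every NPC library. In NSC *Jarid2* was 3.28-fold higher than in Baseline (1.71 ± 0.16, adjusted p = 3.64e-07), and in NR 6.64-fold higher (2.73 ± 0.17, adjusted p = 4.46e-09). NR was 2.02-fold higher than NSC (1.02 ± 0.15, adjusted p = 1.33e-04). Between Sox1posGP and Baseline the log2 fold change was -0.15 with an interval of -0.51 to 0.20. The 35 genes within 5 Mb of *Jarid2*, with a mean above 3 on the log2 CPM scale, had a median of -0.55 in NSC and -0.58 in NR against Baseline, opposite in sign to *Jarid2*.

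**Figure D1:**
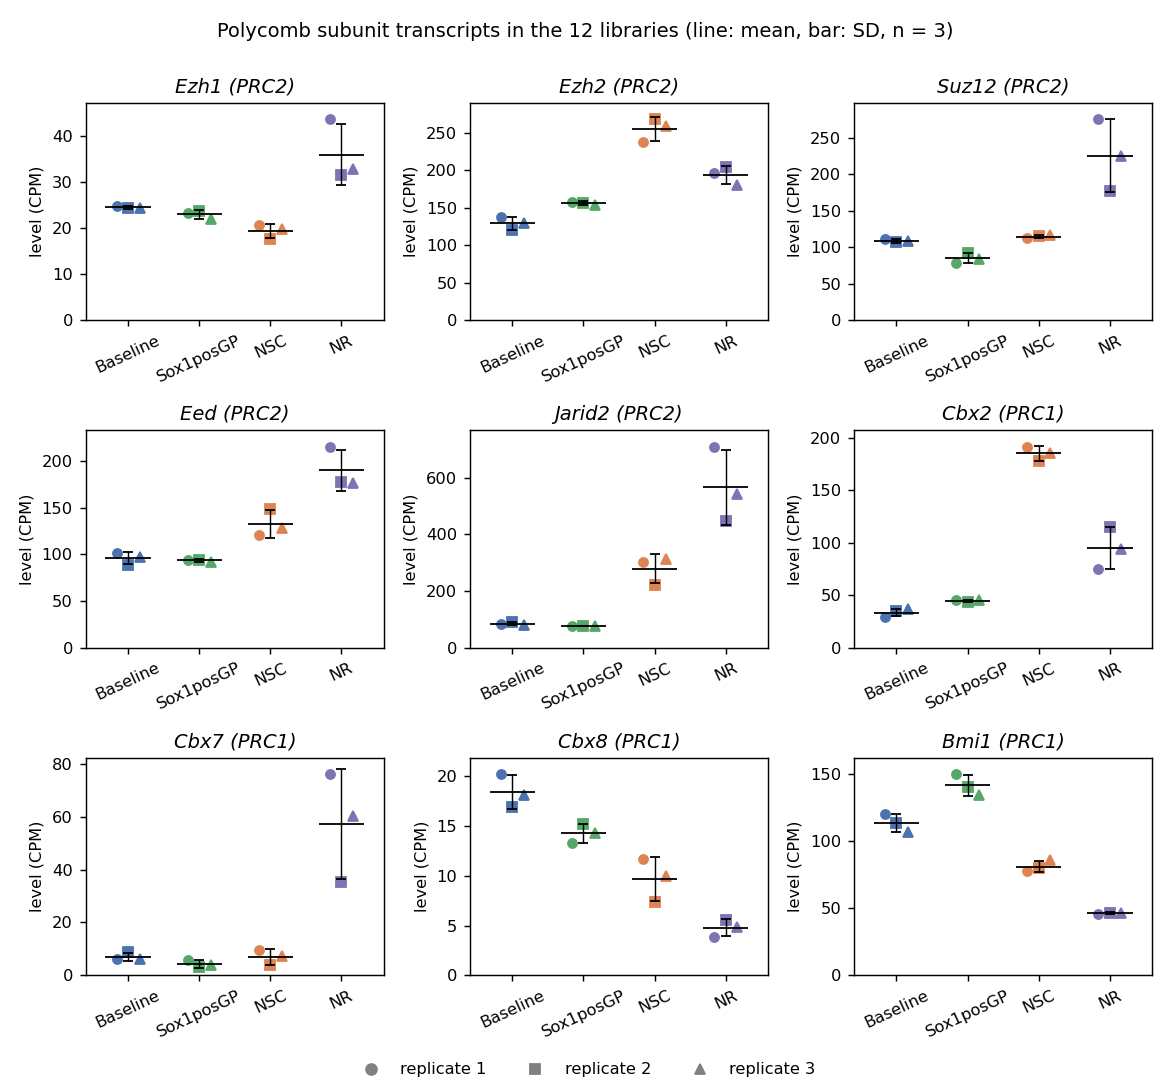
Level of each of the 9 genes in CPM (vertical axis, starting at 0) in the 12 libraries, by group, with the replicate given by the marker shape, the mean as a line and the SD as a bar (n = 3). NR stands above the other groups for Ezh1, Suz12, Eed, Jarid2 and Cbx7, NSC is highest for Ezh2 and Cbx2, and Cbx8 and Bmi1 are higher in both groups of NPCs than in NSC and NR.

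Among the PRC1 members the Cbx genes, which encode the readers of the methyl mark, went in different directions. *Cbx2* (ENSMUSG00000025577, chromosome 11, 119022962 to 119031270, plus strand), whose protein compacts chromatin, was at 29.5, 34.6 and 36.5 CPM in Baseline and at 45.5, 43.7 and 45.5 CPM in Sox1posGP. It was at 192, 178 and 186 CPM in NSC and at 75.4, 115 and 94.2 CPM in NR. The 4 groups did not overlap, and NSC was the highest. NSC was 5.58-fold higher than Baseline (log2 fold change 2.48 ± 0.14 standard error, adjusted p = 1.83e-09) and NR 2.86-fold higher (1.52 ± 0.13, adjusted p = 1.82e-07). NR was lower than NSC with a log2 fold change of -0.96 ± 0.12 (adjusted p = 4.27e-05). Sox1posGP was 1.35-fold higher than Baseline (0.43 ± 0.14, adjusted p = 0.0260). Without Baseline replicate 1, the lowest library of the 12, the last difference was 0.37 with an adjusted p of 0.101.

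*Cbx7* (ENSMUSG00000053411, chromosome 15, 79915807 to 79971119, minus strand), the Cbx gene of pluripotent cells, set NR apart from all other groups. It was at 6.15, 8.79 and 6.05 CPM in Baseline, at 5.79, 3.14 and 3.84 CPM in Sox1posGP and at 9.75, 3.97 and 7.22 CPM in NSC. In NR the levels were 76.1, 35.1 and 60.4 CPM. The first 3 groups overlapped or lay within a few CPM of each other, on 20 to 23 counts per library in Sox1posGP. NR was 8.20-fold higher than Baseline (3.04 ± 0.35, adjusted p = 2.43e-06) and 8.11-fold higher than NSC (3.02 ± 0.32, adjusted p = 1.05e-05). NSC against Baseline gave 0.02 with an interval of -0.73 to 0.76. For Sox1posGP against Baseline the log2 fold change was -0.77, with an interval of -1.71 to 0.16 and an adjusted p of 0.187, which passed in 2 of 21 alternative analyses. Sox1posGP against NSC gave -0.79 at an adjusted p of 0.0980, and passed in 10 of 21 alternatives. The chromosome of *Cbx7* stood apart from those of the other members. Over 387 genes of chromosome 15 with a mean above 3 on the log2 CPM scale the median log2 fold change against Baseline was -0.72 in NSC and -0.78 in NR, beside -0.04 and -0.09 over all such genes, while NR against NSC gave -0.05 on that chromosome. For Sox1posGP the median there was 0.06 against Baseline, 0.74 against NSC and 0.78 against NR, so both groups of NPCs shared the shift. *Cbx6*, *Yaf2* and *Kmt2d*, given below, lie on the same chromosome. The part of this shift in the values of *Cbx7* or of these genes was not tested.

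*Cbx8* (ENSMUSG00000025578, chromosome 11, 119036305 to 119040969, minus strand), the neighbour of *Cbx2*, was highest where *Cbx2* was lowest. Its levels were 20.2, 16.9 and 18.2 CPM in Baseline and 13.3, 15.2 and 14.3 CPM in Sox1posGP. They were 11.7, 7.35 and 9.997 CPM in NSC and 3.88, 5.61 and 4.86 CPM in NR. The groups did not overlap and ranked in the order Baseline, Sox1posGP, NSC, NR. *Cbx8* was 1.91-fold lower in NSC than in Baseline (-0.93 ± 0.19, adjusted p = 4.63e-04) and 3.83-fold lower in NR (-1.94 ± 0.19, adjusted p = 6.60e-07). NR was 2.01-fold lower than NSC (-1.01 ± 0.19, adjusted p = 6.01e-04). The step from Baseline to Sox1posGP, -0.37 with an interval of -0.79 to 0.06, had an adjusted p of 0.169.

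*Bmi1* (ENSMUSG00000026739, chromosome 2, 18677018 to 18686629, plus strand) was the one member that had its highest level in Sox1posGP. It was at 121, 114 and 107 CPM in Baseline and at 150, 140 and 134 CPM in Sox1posGP. NSC had 77.5, 79.7 and 85.7 CPM, and NR had 45.4, 46.8 and 46.8 CPM. No groups overlapped, and the NR libraries, which spread widely for *Cbx7*, lay close together. *Bmi1* was 1.24-fold higher in Sox1posGP than in Baseline (0.31 ± 0.08, adjusted p = 0.0059), the one step of a member between the groups of NPCs that kept its call in all 21 alternative fits. It was lower than in Baseline by a log2 fold change of -0.49 ± 0.08 in NSC (adjusted p = 5.32e-05) and of -1.30 ± 0.08 in NR (adjusted p = 4.29e-09). NR was 1.75-fold lower than NSC (-0.80 ± 0.08, adjusted p = 4.43e-06).

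Sox1posGP against Baseline asks whether switching on *Sox1* moved these genes in NPCs. Of the 9 members 3 were higher, *Cbx2*, *Bmi1* and *Ezh2*, by 1.20- to 1.35-fold, and 1 was lower, *Suz12*, by 1.28-fold. Over the 17003 genes tested 44.3% were called in this comparison, 21.6% higher and 22.7% lower, and 4 of 9 is near that share. The groups did not overlap for 8 of the 9, and for 52.7% of all genes. The median log2 fold change of the 9 was -0.10, and that of all genes was 0.00. Leaving out Baseline replicate 1 left 2 calls, *Bmi1* and *Ezh2*. A set of 16 proliferation genes, of which 10 were higher and 3 lower in Sox1posGP, summed to 3236 to 3639 CPM in Baseline and to 3667 to 3917 CPM in Sox1posGP. Glial markers moved too. The summed level of 9 glial progenitor markers was 4667 to 5098 CPM in Baseline and 2751 to 2825 CPM in Sox1posGP, with 2 of them higher and 3 lower, *Slc1a3*, *Olig2* and *Fabp7*. The 7 neuroepithelial markers summed to 526 to 607 CPM in Baseline and 583 to 610 CPM in Sox1posGP, with 3 higher and 2 lower. Among them *Sox2*, a progenitor factor, was at 284 ± 27 CPM in Baseline and 81.5 ± 4.9 CPM in Sox1posGP (SD, n = 3). *Nes* went the other way, from 90.2 ± 13 to 227 ± 8.3 CPM. The 7 neuron markers summed to 480 to 507 CPM and 424 to 440 CPM, with 1 higher and none lower. Both sums were mostly *Map2*, at 454 to 480 CPM in Baseline and 391 to 408 CPM in Sox1posGP, which was not called. *Dcx* was at 0.54 to 0.98 CPM in Baseline, on 3 to 9 counts, and at 3.84 to 5.81 CPM in Sox1posGP. Sox1posGP was sorted and Baseline was not, and the sort and the activation of *Sox1* cannot be told apart here. The part of these cell identity and proliferation genes in the differences of the members was not tested.

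NSC against Baseline and NR against Baseline compare NPCs with the groups labelled as earlier neural cells. In NSC 4 of 9 members were higher and 3 lower, beside 78.1% of all genes called, 44.4% higher and 33.7% lower. Those higher were *Cbx2*, *Jarid2*, *Ezh2* and *Eed*, and those lower were *Cbx8*, *Bmi1* and *Ezh1*. In NR 7 were higher and 2 lower, *Cbx8* and *Bmi1*, beside 79.8% of all genes called, 45.6% higher and 34.1% lower. The members' median log2 fold change was 0.07 in NSC and 0.99 in NR, against 0.20 and 0.19 over all genes. NSC and Baseline did not overlap for 8 of the 9, *Cbx7* being the exception, beside 77.3% of all genes, and NR and Baseline overlapped for none of the 9, beside 77.8% of all genes that did not overlap. Both comparisons share the Baseline libraries. The proliferation genes summed to 5687 to 5956 CPM in NSC and 5749 to 6348 CPM in NR, above all NPC libraries. The glial markers summed to 1454 to 1497 CPM in NSC and 598 to 916 CPM in NR, below all NPC libraries. Of the 9 glial markers 3 were higher and 6 lower in NSC than in Baseline, and 2 were higher and 7 lower in NR. *Slc1a3* was the largest part of the Baseline sum, at 2468 to 2774 CPM, against 49.4 to 54.0 CPM in NSC and 39.2 to 47.4 CPM in NR. The part of the proliferation or the glial list in these differences was not tested.

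NR against NSC compares the libraries labelled as sorted rosettes, with their high pluripotency markers, with the unsorted NSC culture. All 9 members were called, 5 higher and 4 lower in NR, while 56.6% of all genes were called, 30% higher and 26.6% lower. The 5 higher were *Cbx7*, *Jarid2*, *Suz12*, *Ezh1* and *Eed*, and the 4 lower were *Cbx8*, *Cbx2*, *Bmi1* and *Ezh2*. The groups did not overlap for any of the 9, as for 56.7% of all genes. The 9 calls also held with the replicate number as a block and when each of the 12 libraries was left out in turn. Sox1posGP against NSC gave 2 higher and 6 lower, beside 73.2% of all genes called, 31.4% higher and 41.8% lower, and Sox1posGP against NR gave 2 higher and 7 lower, beside 76.4%, 32% higher and 44.4% lower. In both *Bmi1* and *Cbx8* were the members that were higher. Groups did not overlap for 8 of 9 members in the former, beside 74.3% of all genes, and for all 9 in the latter, beside 75.9%.

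**Figure D2:**
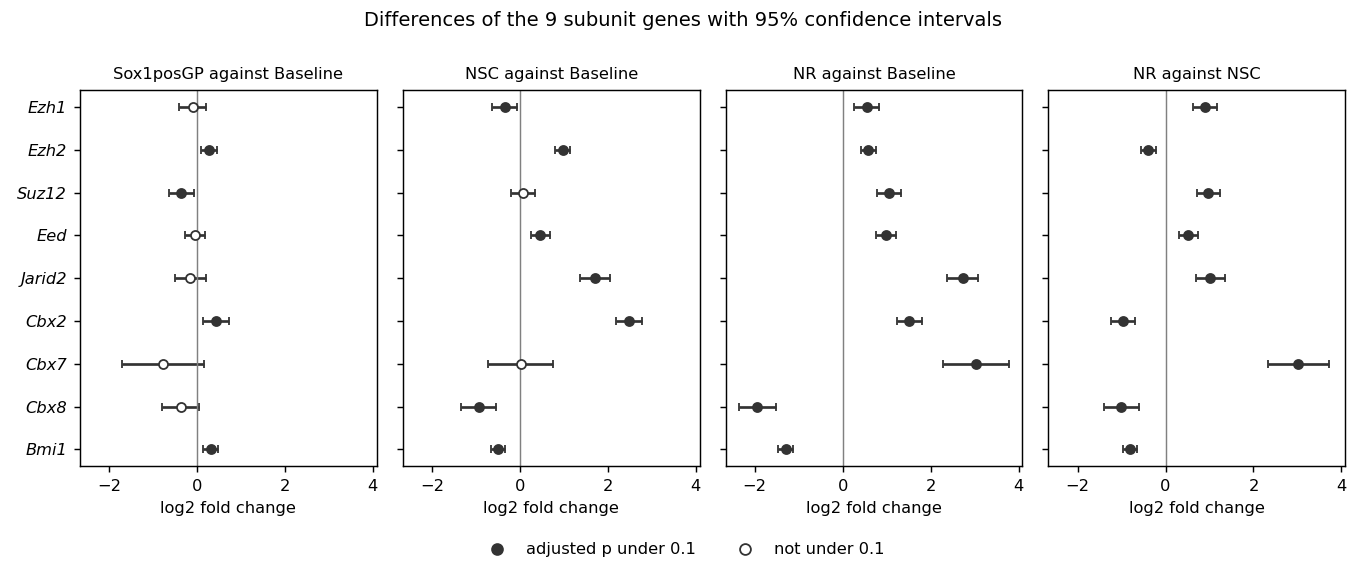
Log2 fold change of the 9 genes (horizontal axis) in 4 comparisons, with 95% confidence intervals as bars and filled points for an adjusted p under 0.1. Between the groups of NPCs all values lie within 1 of 0, and in NR against NSC all 9 intervals exclude 0, with Cbx7 at 3.02.

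Within NR the libraries with more transcripts of the pluripotency markers also had more of some members and less of others. The summed markers were 2741 CPM in NR replicate 1, 2069 CPM in replicate 3 and 1427 CPM in replicate 2. *Cbx7*, *Jarid2*, *Suz12* and *Ezh1* had the same order of the 3 libraries, and *Cbx2* and *Cbx8* the reverse order. In NSC the library with the fewest pluripotency transcripts, replicate 2 with 54.8 CPM, was also the lowest of its group for *Cbx7*, *Jarid2*, *Ezh1*, *Cbx2* and *Cbx8*, and the highest for *Ezh2* and *Eed*. These are orders of 3 libraries and were not tested. Same-numbered NR and NSC libraries deviated together, with correlations from 0.229 to 0.490, so the orders in NR and NSC are not independent.

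**Figure D3:**
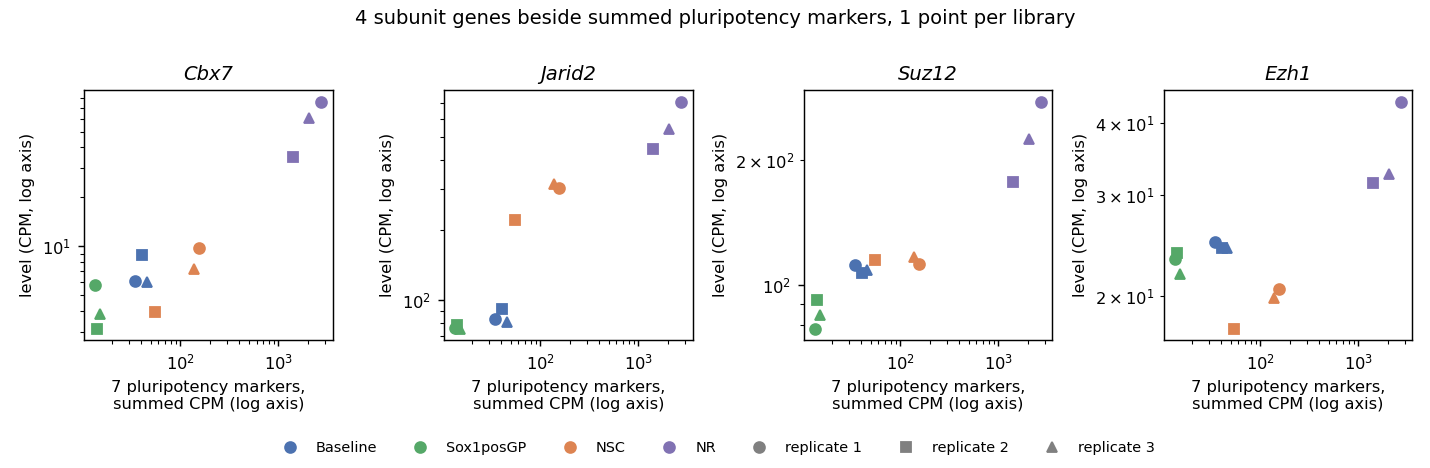
CPM of Cbx7, Jarid2, Suz12 and Ezh1 (vertical, log axis) against the summed CPM of 7 pluripotency markers (horizontal, log axis), 1 point per library, with the group by colour and the replicate by shape. The NR libraries sit at the upper right in each panel and keep one order, and the Baseline and Sox1posGP libraries sit at the left. Members with another order in NR are not shown. In Baseline the sum is mostly Klf4.

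Paralogue ratios were compared per length, as CPM per kilobase of exon (RPKM), because levels of different genes cannot be compared in CPM. *Ezh2* exceeded *Ezh1* in every library. The ratio of *Ezh1* to *Ezh2* was 0.170 ± 0.010 (SD, n = 3) in Baseline, 0.132 ± 0.0042 in Sox1posGP, 0.0683 ± 0.0095 in NSC and 0.166 ± 0.031 in NR. *Ezh2* was thus 5.51 to 6.20 times *Ezh1* in Baseline, 7.33 to 7.82 times in Sox1posGP and 12.9 to 17.1 times in NSC. NR, with 5.03 to 7.25 times, overlapped Baseline and did not overlap NSC. An exact permutation test of the spread between groups over the 15400 ways of splitting the libraries gave p = 0.0018, and adjusted over the 3 ratios p = 0.0018. The NSC ratio was lower than that of Baseline through both a higher *Ezh2* and a lower *Ezh1*, and NR had more of both genes than Baseline.

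The ratio of *Cbx7* to *Cbx2* separated all 4 groups. It was 0.137, 0.167 and 0.109 in Baseline, 0.0836, 0.0472 and 0.0553 in Sox1posGP, 0.0334, 0.0147 and 0.0255 in NSC and 0.663, 0.200 and 0.421 in NR. Per length *Cbx2* therefore led in every library, by 30.0 to 68.2 times in NSC and by 1.51 to 4.99 times in NR. In NR replicate 1 *Cbx7* had 1236 counts and *Cbx2* 1224. The lead of *Cbx2* in that library thus depends on the exon lengths used, 6487 bases for *Cbx7* and 4257 for *Cbx2*. The ratio in NR was 16.5-fold that of NSC and 2.82-fold that of Baseline, and in NSC it was 0.171-fold that of Baseline. The exact permutation test gave p = 6.49e-05, the smallest that 15400 splits allow, and adjusted p = 1.95e-04. *Cbx2* alone also separated the 4 groups. In Sox1posGP the ratio rests on 20 to 23 counts of *Cbx7* per library, and *Cbx7* was not called there against Baseline. For none of the 3 ratios was the share of other gene pairs with such a separation or p computed. The ratio of *Cbx7* to *Cbx8* turned over in NR. It was 0.219 ± 0.067 in Baseline, 0.172 ± 0.067 in Sox1posGP, 0.396 ± 0.084 in NSC and 7.23 ± 3.79 in NR (SD, n = 3), so that *Cbx7* led *Cbx8* in the 3 NR libraries and in no other (exact permutation p = 5.84e-04, adjusted p = 8.77e-04).

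**Figure D4:**
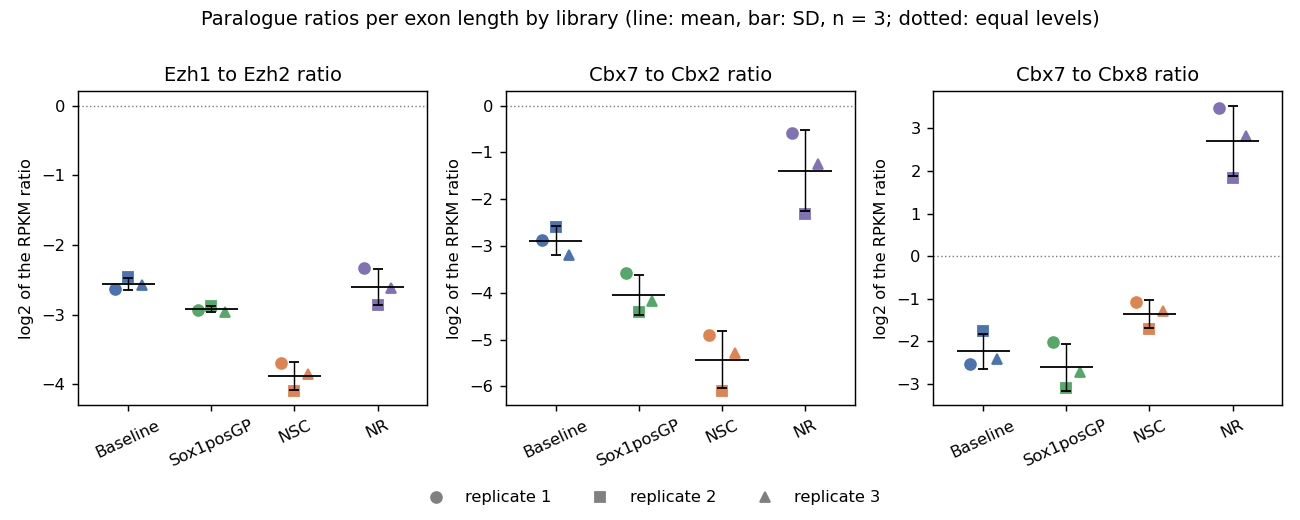
Log2 of the RPKM ratio of Ezh1 to Ezh2, Cbx7 to Cbx2 and Cbx7 to Cbx8 (vertical axis) in each library by group, with the mean as a line, the SD as a bar (n = 3) and equal levels as a dotted line. NSC has the lowest Ezh1 to Ezh2 and Cbx7 to Cbx2 ratios, and NR has the highest ratios of Cbx7, above equality beside Cbx8.

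The make-up of the 3 member Cbx genes can also be given as shares of their summed RPKM. In Baseline *Cbx2* had 56.3 ± 4.0% (SD, n = 3), *Cbx8* 36.0 ± 4.5% and *Cbx7* 7.72 ± 1.7%. In Sox1posGP *Cbx2* had 69.9 ± 0.84%, *Cbx8* 25.8 ± 2.0% and *Cbx7* 4.34 ± 1.4%. In NSC *Cbx2* had 92.2 ± 1.8%, *Cbx8* 5.54 ± 0.95% and *Cbx7* 2.25 ± 0.83%. In NR *Cbx2* had 68.4 ± 11%, *Cbx7* 27.6 ± 11% and *Cbx8* 3.999 ± 0.52%. Among these 3 genes *Cbx2* led in all 4 groups, and the gene after it was *Cbx8* in Baseline, Sox1posGP and NSC and *Cbx7* in NR. The sum of the 3 genes was 13.97 RPKM in Baseline, 15.1 in Sox1posGP, 47.2 in NSC and 32.4 in NR. *Cbx6*, another Cbx gene of canonical PRC1, was above *Cbx2* per length in Baseline, with 9.998 ± 0.81 against 7.88 ± 0.86 RPKM (SD, n = 3), and in Sox1posGP, with 14.4 ± 0.53 against 10.54 ± 0.25 RPKM. It was below *Cbx2* in NSC, with 3.70 ± 0.67 against 43.5 ± 1.6 RPKM, and in NR, with 3.87 ± 1.1 against 22.3 ± 4.7 RPKM. *Cbx6* was 1.44-fold higher in Sox1posGP than in Baseline (adjusted p = 0.0318, or 0.107 without Baseline replicate 2) and lower in NSC by 2.69-fold and in NR by 2.59-fold. It lies on chromosome 15 close to *Cbx7*. The 128 genes within 5 Mb of *Cbx7*, with a mean above 3 on the log2 CPM scale, were lower than in Baseline too. Their median log2 fold change was -0.74 in NSC and -0.87 in NR, and its part in the *Cbx6* values was not tested.

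The paralogue of *Bmi1* in canonical PRC1 went the other way. *Pcgf2*, which encodes the Mel18 protein, had 7.26 ± 2.3% (SD, n = 3) of the summed RPKM of *Bmi1* and *Pcgf2* in Baseline and 4.30 ± 0.44% in Sox1posGP. Its share was 20.3 ± 1.5% in NSC and 33.1 ± 2.5% in NR. *Pcgf2* was 2.32-fold higher in NSC than in Baseline (adjusted p = 7.67e-05) and 2.59-fold higher in NR (adjusted p = 2.30e-05), with 4.84 to 9.81 CPM in the NPC libraries and 17.4 to 23.3 CPM in the others. Between the ligases *Ring1* and *Rnf2* the share of *Ring1* was 15.1 ± 1.9%, 12.2 ± 1.3%, 14.3 ± 1.6% and 13.1 ± 1.0% in Baseline, Sox1posGP, NSC and NR. *Ring1* and *Rnf2* were both lower in Sox1posGP than in Baseline, by log2 fold changes of -0.64 (adjusted p = 0.0052) and -0.28 (adjusted p = 0.0286), and both higher in NSC, by 0.33 (adjusted p = 0.0462) and 0.44 (adjusted p = 6.46e-04). The call of *Rnf2* in Sox1posGP was lost without Baseline replicate 1 (adjusted p = 0.214) and when all libraries were thinned to the smallest total (adjusted p = 0.206). That of *Ring1* in NSC was lost after thinning (adjusted p = 0.182) and without Baseline replicate 1 or 3 or NSC replicate 1 or 3 (adjusted p from 0.104 to 0.147).

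The accessory subunits of PRC2 were followed as a list of 7. In NSC 4 were higher and 2 lower than in Baseline, in NR 5 higher and 1 lower, and in Sox1posGP 1 higher and 2 lower, beside 78.1%, 79.8% and 44.3% of all genes called in these comparisons, so the numbers called are near the background. *Epop*, an accessory subunit known from embryonic stem cells, rose from 17.7, 29.7 and 27.8 CPM in Baseline to 91.1, 84.8 and 93.8 CPM in NSC and 470, 282 and 344 CPM in NR, which was 15.0-fold higher in NR (adjusted p = 1.12e-09). *Mtf2* was 2.11-fold higher in NSC and 5.33-fold higher in NR. *Phf19*, another Polycomb-like protein, differed between NSC and NR, with 4.25, 3.90 and 4.45 CPM in NSC and 72.2, 35.8 and 48.7 CPM in NR, a 12.4-fold difference (adjusted p = 2.16e-07). In Baseline it was at 11.9, 9.35 and 11.5 CPM and in Sox1posGP at 3.18, 4.24 and 3.00 CPM (log2 fold change -1.63, adjusted p = 4.76e-04). *Aebp2* fell in Sox1posGP from 122, 125 and 111 CPM to 48.9, 50.9 and 49.4 CPM (2.41-fold, adjusted p = 1.34e-07), a larger step than that of any member between these groups. *Phf1* was 1.44-fold higher in NSC (adjusted p = 0.0274, or 0.103 without Baseline replicate 1) and 1.47-fold higher in NR. *Rbbp7* was 1.55-fold higher in NSC and 1.82-fold higher in NR, and *Rbbp4* had 178 CPM in NR replicate 3 against 414 to 564 CPM in the other libraries.

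Of 9 other canonical PRC1 genes 6 were higher and 2 lower in NSC than in Baseline, 4 higher and 2 lower in NR, and 1 higher and 3 lower in Sox1posGP, where 78.1%, 79.8% and 44.3% of all genes were called. *Phc1*, a polyhomeotic subunit, was at 56.5, 58.5 and 57.2 CPM in Baseline, 147, 151 and 166 CPM in NSC and 567, 319 and 416 CPM in NR, which was 7.56-fold higher than Baseline (adjusted p = 2.36e-09). *Phc3* was lower in all 3 comparisons, by log2 fold changes of -0.59 in Sox1posGP, -1.57 in NSC and -1.80 in NR. *Scmh1* was 3.22-fold higher in NSC and 4.13-fold higher in NR. Of 13 genes of variant PRC1, the forms without a Cbx protein, 4 were higher and 4 lower in Sox1posGP, 5 and 3 in NSC, and 7 and 1 in NR. The share called was below that of all genes in NSC and NR and above it in Sox1posGP. *Kdm2b*, which brings PRC1 to unmethylated CpG islands, was higher than in Baseline in all 3 groups, by 1.73-fold in Sox1posGP, 2.23-fold in NSC and 2.12-fold in NR. *Bcor*, its partner, was higher by 1.27-fold, 2.01-fold and 1.84-fold. *Pcgf6* was 1.76-fold lower in Sox1posGP and 1.73-fold higher in NR, and *Auts2* was 3.14-fold higher in NSC and 1.69-fold higher in NR. *Yaf2*, on chromosome 15 with the shift given for *Cbx7*, was 1.65-fold lower in NSC and 2.98-fold lower in NR. *Pcgf5* was 1.52-fold higher in Sox1posGP and 1.99-fold higher in NR, the former lost without Baseline replicate 2 (adjusted p = 0.143) or Sox1posGP replicate 3 (adjusted p = 0.160).

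Of 11 genes of enzymes that oppose Polycomb 7 were lower and 3 higher in NSC than in Baseline, beside 33.7% and 44.4% of all genes. In NR 7 were lower and 4 higher, beside 34.1% and 45.6%, and in Sox1posGP 4 were lower and 2 higher, beside 22.7% and 21.6%. Their median log2 fold change was -0.66 in NSC and -0.51 in NR, against 0.20 and 0.19 over all genes, and the list as a whole was not tested. The demethylases of the PRC2 mark went apart. *Kdm6a* was at 27.1, 28.2 and 24.8 CPM in Baseline, 86.9, 70.6 and 86.3 CPM in NSC and 165, 111 and 128 CPM in NR, 3.03-fold (adjusted p = 1.89e-07) and 5.03-fold higher (adjusted p = 4.86e-09). *Kdm6b* was lower than in Baseline in all 3 groups, by log2 fold changes of -0.89 in Sox1posGP (adjusted p = 0.0017), -0.81 in NSC (adjusted p = 7.60e-04) and -1.20 in NR (adjusted p = 2.61e-05). The methyltransferase genes *Kmt2d* and *Ash1l* were lower in NSC by 2.93-fold and 2.20-fold and in NR by 3.05-fold and 2.61-fold, and *Ash1l* was 1.57-fold higher in Sox1posGP. *Kmt2d* lies on chromosome 15, with the shift given for *Cbx7*. *Bap1*, a deubiquitinase that removes the PRC1 mark, was higher in Sox1posGP, NSC and NR by 1.41-fold, 2.58-fold and 2.01-fold, and *Usp16* was lower by 1.47-fold, 1.41-fold and 1.28-fold.

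The *Cdkn2a* locus, the best known target of Bmi1 and Cbx7 in dividing cells, was highest in the groups with the most *Bmi1*. *Cdkn2a* was at 39.7, 35.7 and 30.9 CPM in Baseline and 36.2, 35.3 and 44.2 CPM in Sox1posGP, against 1.97, 3.52 and 2.22 CPM in NSC and 5.11, 3.74 and 4.64 CPM in NR. It was 13.99-fold lower in NSC than in Baseline (adjusted p = 2.42e-09) and 7.98-fold lower in NR (adjusted p = 1.66e-08). *Cdkn2b* was lower than in Baseline in all 3 groups, by log2 fold changes of -0.42 in Sox1posGP, -0.88 in NSC and -0.82 in NR.

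**Figure D5:**
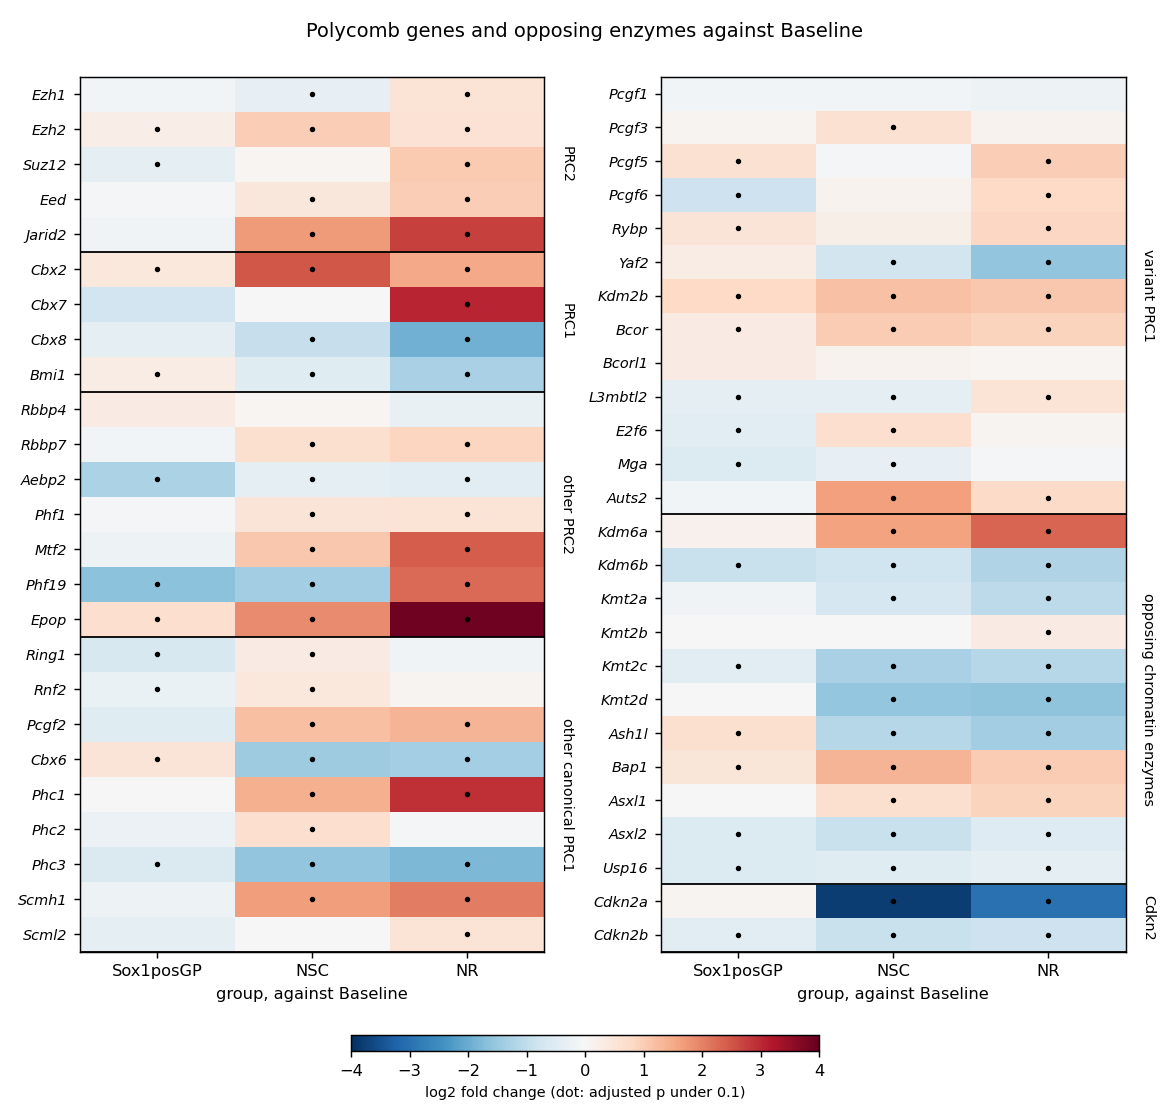
Log2 fold change against Baseline (colour, from -4 in blue to 4 in red) of the 9 members, the other Polycomb genes, the opposing enzymes and the Cdkn2 genes in Sox1posGP, NSC and NR, with a dot for an adjusted p under 0.1. The strongest colours are the falls of Cdkn2a and the rises of Epop, Phc1, Cbx7 and Jarid2.

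The genes whose levels followed the main paralogues most closely were looked up among 9657 genes with a mean above 3 on the log2 CPM scale, by Pearson's r over the 12 libraries, which share 4 groups and differ in depth. For *Ezh1* they were *Coro1b* (0.978) and *Pdcd7* (0.976), for *Ezh2* *Matr3* (0.985) and *Trp53bp2* (0.985), for *Cbx2* *Mycl* (0.997) and *4931428F04Rik* (0.995), and for *Cbx7* *Alpl* (0.978) and *Abcd4* (0.970).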

How the data were processed

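PicoPure columns were used for RNA and SMART-Seq v4 for amplification. The authors deposited raw read counts per Ensembl gene, without normalization. The submitters' processing notes name STAR 2.6, RSEM 1.1.14 and mm10 with no role, and the strand setting and annotation are not given in the sources used here, so *Cbx7* and the gene that overlaps its end could share reads. Counts were whole numbers. Symbols, GRCm38 coordinates and exon lengths came from GENCODE release 21 of the mouse, with 45143 of 45706 identifiers matched, and the others held 0.124% of counts.

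Counts were scaled by TMM, filtered by filterByExpr over the 4 groups and fitted for all 12 libraries with glmQLFit and glmQLFTest in edgeR 4.0.16 under R 4.3.3, with no block. P values were adjusted by Benjamini-Hochberg over 17003 genes, and genes were called at an adjusted p under 0.1, the false discovery rate of the study. Standard errors were obtained from each log2 fold change and its F statistic, and intervals are at 95%. RPKM is TMM-scaled CPM divided by exon length in kilobases. Log2 ratios were tested with an exact permutation test written in Python 3.11.15 with numpy 2.4.6. Its p is the share of splits with a between-group sum of squares at least as large as that observed. On simulated data with 17003 genes, 200 of them changed as in Sox1posGP against Baseline, 71% were recovered at a log2 fold change of 1 and 94% at 2, with 19 false calls. In the data 7532 genes were called in that comparison, so these rates need not hold there. Log2 fold changes below 1 in size, as for every member in that comparison, were not simulated. Intervals cover the spread between these samples. No pair of replicates agreed within counting noise.

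Same-numbered NR and NSC libraries deviated together, with correlations of their deviations from 0.229 to 0.490, and were treated as paired in the alternative with the replicate block, whereas in the other comparisons correlations lay between -0.047 and 0.062. The members, the gene lists and the tests were chosen with earlier results of these data known. Apart from the members the text names a fixed set of core subunits and, in each list, up to 3 called genes with the largest non-overlapping change against Baseline. One listed gene is not reported here and was left out of the lists. Alternatives were DESeq2 1.42.0 (Wald test and size factors), upper-quartile scaling, other filters, the replicate block, fits restricted to the compared groups, thinning to 3407066 counts, other thresholds and the omission of each library. A fit without the NR libraries was chosen after seeing the data.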

Additional observations from a re-analysis of the deposited data

How the results depend on the processing

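Most results kept their direction and side of the threshold. Of 1107 alternative log2 fold changes of members, 1062 did, 18 lost the call, 11 gained it and 16 changed sign. Those that changed sign were values near 0 that were not called. For *Cbx7* in NSC against Baseline (0.02) they were -0.00434 with only the 2 groups compared, -0.0437 with the replicate block, -0.177 after thinning, -0.118 and -0.0408 without Baseline replicate 1 or 3, -0.0170 and -0.0106 without NR replicate 1 or 3, -0.307 and -0.000127 without NSC replicate 1 or 3 and -0.0109 without Sox1posGP replicate 1. For *Eed* in Sox1posGP against Baseline they were 0.0335 with at least 10 counts in every library, 0.0088 with only the 2 groups compared, 0.104 after thinning, 0.0287 with upper-quartile scaling and 0.0415 without Baseline replicate 1, and for *Ezh1* 0.0915 after thinning. The ratio of *Ezh1* to *Ezh2* in NR minus Baseline, -0.05 on the log2 scale, was 0.0401 after thinning and 0.0801 without NR replicate 2, and lay between -0.18 and 0.08 when 1 library was left out. Leaving out 1 library gave *Cbx7* in NSC against Baseline from -0.31 to 0.29 and *Eed* in Sox1posGP against Baseline from -0.10 to 0.04. The cause was not tested.

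With a fold change over 4 required as well, the members called were 0 in Sox1posGP against Baseline, 1 in NSC and 2 in NR against Baseline, 1 in NR against NSC, 1 in Sox1posGP against NSC and 2 in Sox1posGP against NR, and of the 42 other listed genes 0, 1, 7, 2, 1 and 8 in that order. Leaving out 1 library gave 2 to 4 members for Sox1posGP against Baseline and 7 to 9 for Sox1posGP against NSC. Without the 3 NR libraries, chosen after seeing the data, 4, 7 and 9 members were called in Sox1posGP against Baseline, NSC against Baseline and Sox1posGP against NSC. With the replicate block the numbers of members called were 4, 7, 9, 9, 8 and 9, and no member gained or lost a call, while 28 in place of 25 of the 42 other genes were called in NR against NSC. With no filter on low counts the median over all genes in NR against Baseline was 0.46, against 0.19. Depth limits *Cbx7*, *Cbx8* and *Ezh1* most, with 20 to 23, 46 to 97 and 80 to 151 counts in Sox1posGP. With at least 10 counts required in every library, which tests fewer genes, 8619, 8647 and 8310 genes were called in NR against Baseline, NSC against Baseline and Sox1posGP against NR, in place of 13563, 13283 and 12994. With the fold change over 4 the numbers over all genes were 985 in place of 7532 for Sox1posGP against Baseline, 4254 for NSC and 4763 for NR against Baseline, 1268 in place of 9631 for NR against NSC, 3775 in place of 12446 for Sox1posGP against NSC and 4437 for Sox1posGP against NR.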
